A study of Rattus norvegicus with 6 samples.

Results

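Neurexins, neuroligins and LRRTMs are adhesion proteins that meet across the synaptic cleft. Transcripts of 9 of their genes were followed in cultured retinal ganglion cells, or RGCs, which carry the retina's signals to the brain. The genes were taken by symbol from a table of 17366 rat transcripts, and all 9 were found: the neurexins Nrxn2 and Nrxn3, the neuroligins Nlgn1, Nlgn2 and Nlgn3, and the leucine-rich repeat transmembrane proteins Lrrtm1 (spelled LRRTM1 in the table), Lrrtm2, Lrrtm3 and Lrrtm4. Other members of these families were not analysed here. Treated cultures received Chrdl1 (chordin-like 1, which is secreted and binds bone morphogenetic proteins, or BMPs) at 1 µg/ml for 12 h, in 3 libraries. The 3 control libraries came from cultures that received vehicle, 0.1% BSA in 4 mM HCl. All cultures were RGCs of Sprague Dawley rats labelled P5, kept for 10 days, with no genetic change named in the labels. Each title ends in a code that 1 library of either group carries, and the 3 codes, in ascending order, are called pairs A, B and C. What the codes mean, and whether replicate libraries came from separate animals or cultures, is not in the labels, so every p-value measures only library-to-library spread, which may be technical.

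Neurexins sit mainly on the axon terminal and bind several families of partners on the receiving cell. Neuroligins are postsynaptic partners of neurexins. Nlgn1 is found mostly at excitatory synapses, Nlgn2 mostly at inhibitory synapses, and Nlgn3 at both. LRRTMs are postsynaptic proteins of excitatory synapses that bind neurexins. RGCs release glutamate from their axons and receive both excitatory and inhibitory input on their dendrites, so they can use these proteins on both sides of a synapse. Chrdl1 is made by astrocytes and is known for acting on synaptic AMPA receptors, and the comparison asks whether adding it changes RGC transcripts.

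Values are FPKM, which scales the reads of a transcript by its length and by the read total of the library. They rest on read totals between 14546700 (the vehicle library of pair B) and 26551800 (the vehicle library of pair C). Of 9 RGC markers, 8 were in the table, and these 8 were at 1 FPKM or more in every library, summing to 2165 to 2590 FPKM in Chrdl1 and 2295 to 2593 FPKM in vehicle libraries. The extraction protocol names visual cortex, while the other labels name RGC cultures. The 5 genes listed for cortical excitatory neurons summed to 12.4 to 68.7 FPKM in Chrdl1 and 13.5 to 63.1 FPKM in vehicle libraries, and most of the upper values was Slc17a7, which retinal bipolar cells and photoreceptors also use. Of genes of other cell types, the 10 microglial genes summed to 14.3 FPKM in Chrdl1 and 26.2 FPKM in vehicle libraries of pair B, and to 197 to 294 FPKM in the other libraries. The 6 photoreceptor genes summed to 49.9 FPKM in Chrdl1 and 49.4 FPKM in vehicle libraries of pair C, and to 2.45 to 5.78 FPKM in the other libraries, most of it Crx. In whole cultures, fewer cells of a type and less RNA per cell cannot be told apart.

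The neurexin Nrxn2 was the most abundant of the 9 transcripts. It lies on chromosome 1 from 221801524 to 221908047 of rn6, plus strand, with a listed transcript of 6385 bases. Taking pairs A, B and C in turn, it was at 59.8, 44.7 and 43.7 FPKM in Chrdl1 libraries, and in vehicle libraries at 59.3, 45.6 and 46.6 FPKM. Both pair A libraries were high and the other 4 were close together, so that the groups overlapped fully. Nrxn2 averaged 49.4 ± 9.04 FPKM in Chrdl1 and 50.5 ± 7.60 FPKM in vehicle libraries (SD, n = 3 each), from 4235 to 9263 reads per library. Nrxn3, on chromosome 6 from 112133204 to 114067564, was at 19.7, 22.9 and 22.7 FPKM in Chrdl1 and 20.1, 22.7 and 20.4 FPKM in vehicle libraries. The groups overlapped, and Nrxn3 averaged 21.8 ± 1.79 FPKM in Chrdl1 and 21.1 ± 1.44 FPKM in vehicle libraries (SD, n = 3 each). Neurexin genes make a long alpha and a short beta form from separate promoters and are heavily spliced. The table gives 1 transcript per gene, so these forms were not resolved.

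Nlgn2 and Nlgn3 were close to each other in level, and Nlgn1 was lower in every library. Nlgn2, on chromosome 10 from 56431588 to 56444844, was at 44.6, 40.6 and 35.8 FPKM in Chrdl1 and at 45.0, 39.6 and 37.6 FPKM in vehicle libraries, in the order of pairs A, B and C. Nlgn3, on chromosome X from 71199516 to 71221951, was at 44.7, 37.9 and 34.4 FPKM in Chrdl1 and at 44.6, 39.3 and 32.4 FPKM in vehicle libraries. For both genes pair A was highest and pair C lowest in each group, and the groups overlapped. Nlgn2 averaged 40.4 ± 4.42 FPKM in Chrdl1 and 40.7 ± 3.85 FPKM in vehicle libraries, and Nlgn3 averaged 39.0 ± 5.26 FPKM in Chrdl1 and 38.8 ± 6.12 FPKM in vehicle libraries (SD, n = 3 each). Nlgn1, on chromosome 2 from 111058792 to 111792962, was at 14.3, 16.3 and 13.3 FPKM in Chrdl1 and at 14.4, 16.1 and 11.4 FPKM in vehicle libraries. Here pair B was highest in each group, and the vehicle library of pair C was the lowest of the 6. Nlgn1 averaged 14.6 ± 1.51 FPKM in Chrdl1 and 13.97 ± 2.34 FPKM in vehicle libraries.

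The promoter windows of the 3 neuroligin genes are printed because all 3 differed between title codes, as 47.4% of all tested genes did (described further on). The RefSeq windows are on build GRCr8, which is not the build of the deposited coordinates. They run from 250 bases before to 50 after a gene's start and were found for 7 of the 9 members. None was found for Nrxn2, which also differed between codes, or for Nrxn3. Each printed window is given 5′ to 3′ on the gene's strand, with CpG dinucleotides in capitals.
Nlgn1 (chr2:110930627-110930926, minus strand): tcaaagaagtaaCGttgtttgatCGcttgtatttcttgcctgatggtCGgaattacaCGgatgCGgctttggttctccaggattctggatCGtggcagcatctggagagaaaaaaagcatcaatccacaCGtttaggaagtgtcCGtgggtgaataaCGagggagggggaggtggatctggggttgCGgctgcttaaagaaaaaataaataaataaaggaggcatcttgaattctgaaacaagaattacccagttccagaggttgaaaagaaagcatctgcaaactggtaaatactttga
Nlgn2 (chr10:55056529-55056828, minus strand): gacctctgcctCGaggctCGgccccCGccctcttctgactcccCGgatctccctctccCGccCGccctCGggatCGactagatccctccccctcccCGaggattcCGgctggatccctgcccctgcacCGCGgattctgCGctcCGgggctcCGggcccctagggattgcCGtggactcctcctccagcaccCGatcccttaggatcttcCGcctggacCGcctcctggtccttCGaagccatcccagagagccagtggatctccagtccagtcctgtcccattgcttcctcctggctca
Nlgn3 (chrX:70469228-70469527, plus strand): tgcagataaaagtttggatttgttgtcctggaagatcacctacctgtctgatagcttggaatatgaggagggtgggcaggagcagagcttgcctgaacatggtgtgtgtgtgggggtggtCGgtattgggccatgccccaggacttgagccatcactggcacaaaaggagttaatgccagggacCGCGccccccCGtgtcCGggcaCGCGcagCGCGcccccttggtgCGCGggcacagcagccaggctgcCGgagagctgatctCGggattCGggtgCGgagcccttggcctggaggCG

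The Nlgn2 and Nlgn3 windows held 67.3% and 61.7% G and C, with 20 and 16 CpGs, and the Nlgn1 window 43.3% with 10 CpGs. Over all 33469 windows of this length the medians were 51.7% and 7 CpGs. The 4 LRRTM windows were below that median, from 43.0% for Lrrtm2 to 49% for Lrrtm1, with 6 to 15 CpGs. Lrrtm2 (43.0%) and Lrrtm3 (47.7%) had the same order of pair means as Nlgn2 and Nlgn3, although Lrrtm3 had it in neither group alone. Lrrtm2 and Lrrtm3 did not pass the F-test between title codes (adjusted p = 0.141 and 0.732). The part of G and C content in the differences between codes was not tested. The GC-rich element bound by Smads of the BMP pathway, searched as GGCGCC, which reads the same on both strands, was in 0 of the 7 windows and in 11% of all windows. The TATA box, searched as TATAAA on both strands, was in 0 of the 7 and in 14.2% of all windows. These counts describe the letters of the windows alone.

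Of the FPKM summed over Nlgn1, Nlgn2 and Nlgn3, Nlgn2 made up 43.0% ± 0.105 in Chrdl1 and 43.7% ± 2.26 in vehicle libraries (SD, n = 3 each). Nlgn3 made up 41.4% ± 1.61 in Chrdl1 and 41.4% ± 1.55 in vehicle libraries. Nlgn1 made up 15.6% ± 1.71 in Chrdl1 and 14.9% ± 1.73 in vehicle libraries. The sum itself was 94.0 ± 10.1 FPKM in Chrdl1 and 93.5 ± 11.4 FPKM in vehicle libraries. The shares are given as a description, with no test, and each group's share lay within 1 SD of the other group's for Nlgn1 and Nlgn3. For Nlgn2 the vehicle library of pair C, at 46.1%, stood above the other libraries, which ran from 41.7% to 43.3%.

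LRRTM transcripts were the scarcest of the 3 families. Lrrtm2, on chromosome 18 from 28012877 to 28017925, led them, at 7.30, 5.90 and 5.89 FPKM in Chrdl1 and at 6.99, 6.13 and 5.67 FPKM in vehicle libraries, given in the order of pairs A, B and C. Pair A was highest in both groups, and the group means of 6.36 ± 0.813 FPKM with Chrdl1 and 6.26 ± 0.670 FPKM with vehicle lay within 1 SD of each other. Lrrtm4, which also binds heparan sulfate proteoglycans such as glypicans and lies on chromosome 4 from 110702279 to 111497641, was at 2.50, 2.67 and 3.46 FPKM in Chrdl1 and at 2.55, 3.42 and 3.29 FPKM in vehicle libraries. Both pair A libraries were lower than the other 4, and Lrrtm4 averaged 2.87 ± 0.511 FPKM in Chrdl1 and 3.09 ± 0.470 FPKM in vehicle libraries. Lrrtm3, on chromosome 20 from 25990304 to 26163656, was at 2.35, 1.70 and 1.91 FPKM in Chrdl1 and at 1.83, 2.08 and 1.70 FPKM in vehicle libraries, with the Chrdl1 library of pair A highest. Its FPKM ratio of Chrdl1 over vehicle was 1.28 in pair A, 0.817 in pair B and 1.12 in pair C, so that its pairs went in different directions, and Lrrtm3 averaged 1.98 ± 0.330 FPKM in Chrdl1 and 1.87 ± 0.193 FPKM in vehicle libraries.

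LRRTM1 was the one member whose groups did not overlap. On chromosome 4 from 108301129 to 108316373, it was at 2.03, 1.87 and 1.90 FPKM in Chrdl1 and at 2.04, 2.22 and 2.47 FPKM in vehicle libraries, in the order of pairs A, B and C. It averaged 1.93 ± 0.0821 FPKM in Chrdl1 and 2.24 ± 0.212 FPKM in vehicle libraries (SD, n = 3 each). The highest Chrdl1 and the lowest vehicle library, both of pair A, nearly met, since 1 read is worth 0.0129 to 0.0236 FPKM for this transcript. Among all tested genes the groups did not overlap in 2.44%, which is the background for this 1 of 9. The FPKM ratio of Chrdl1 over vehicle was 0.991 in pair A, 0.846 in pair B and 0.770 in pair C, with 95% intervals from exact binomial limits of 0.780 to 1.26, 0.642 to 1.12 and 0.613 to 0.965. These intervals cover counting error only, from 138, 125 and 134 reads in Chrdl1 and 146, 94 and 191 reads in vehicle libraries. The microglial sum was lower with Chrdl1 in each pair too, at 197, 14.3 and 264 FPKM in Chrdl1 and 241, 26.2 and 294 FPKM in vehicle libraries, and its part in the LRRTM1 values was not tested. LRRTM1 and Lrrtm2 lie inside Ctnna2 and Ctnna1, on the opposite strand of these catenin genes, which averaged 39.9 and 12.0 FPKM. The library kit keeps the strand, and whether the counting used it is not given in the sources used here, so that reads of the catenin genes in these spans cannot be told apart from LRRTM reads.

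**Figure D1:**
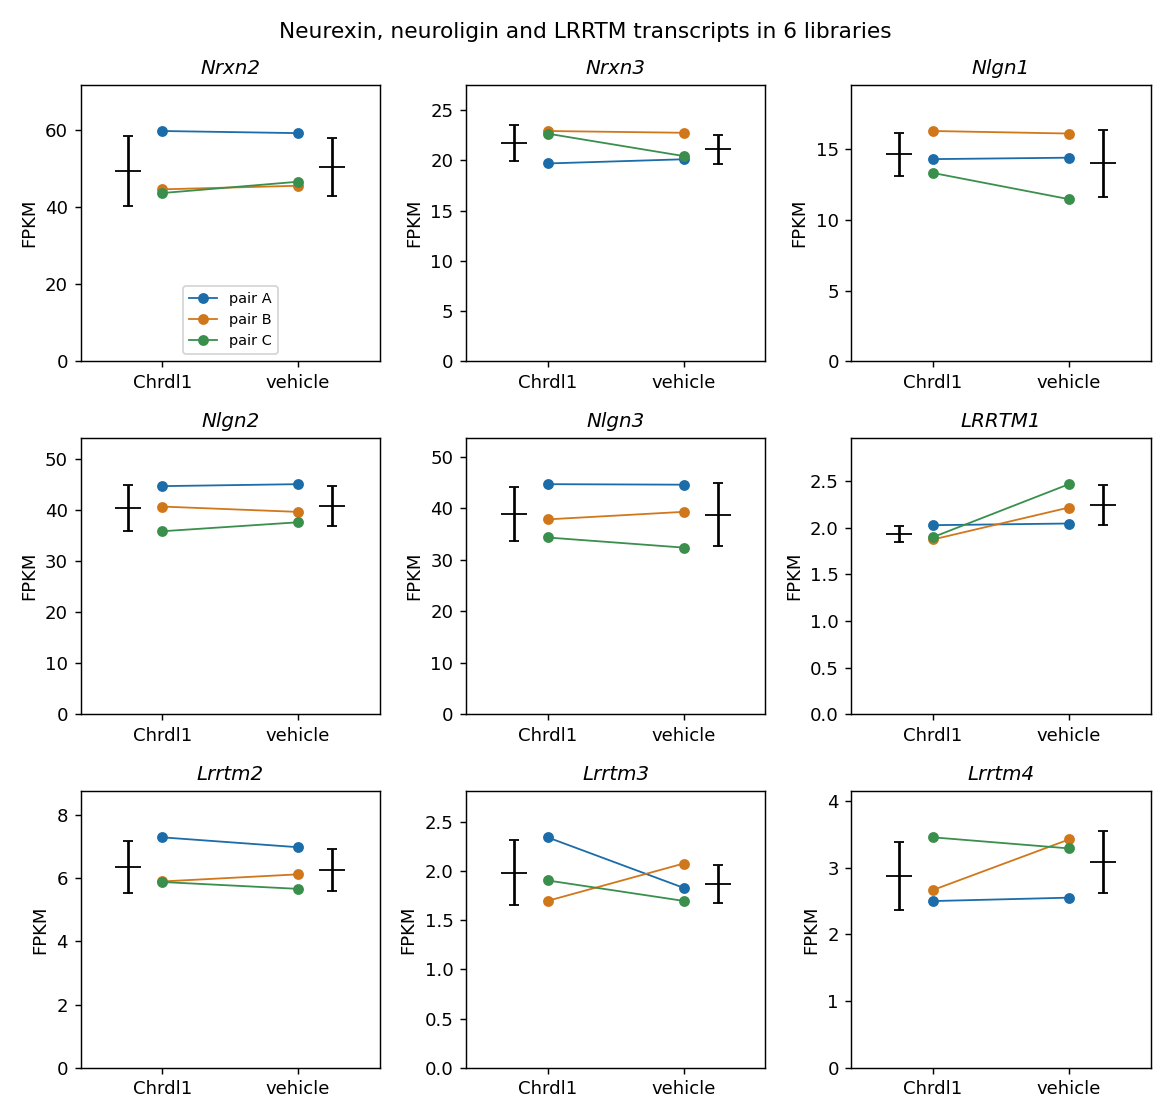
FPKM (vertical axes, from 0) of the 9 genes in Chrdl1 and vehicle libraries; coloured lines connect the Chrdl1 and vehicle library of 1 title code, and the black bars beside the points are the mean ± SD of 3 libraries. Nrxn2, Nlgn2, Nlgn3 and Lrrtm2 were highest in pair A of both groups, and LRRTM1 at 1.87 to 2.03 FPKM in Chrdl1 libraries lay below its vehicle libraries at 2.04 to 2.47 FPKM.

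Of the FPKM summed over the 4 LRRTM genes, Lrrtm2 made up 48.3% ± 3.38 in Chrdl1 and 46.5% ± 4.86 in vehicle libraries (SD, n = 3 each). Lrrtm4 made up 22.0% ± 4.33 in Chrdl1 and 22.9% ± 3.40 in vehicle libraries, and Lrrtm3 made up 15.0% ± 1.35 in Chrdl1 and 13.9% ± 1.05 in vehicle libraries. LRRTM1 made up 14.7% ± 0.617 in Chrdl1 and 16.7% ± 1.87 in vehicle libraries. The sum was 13.2 ± 1.02 FPKM in Chrdl1 and 13.5 ± 0.365 FPKM in vehicle libraries.

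**Figure D2:**
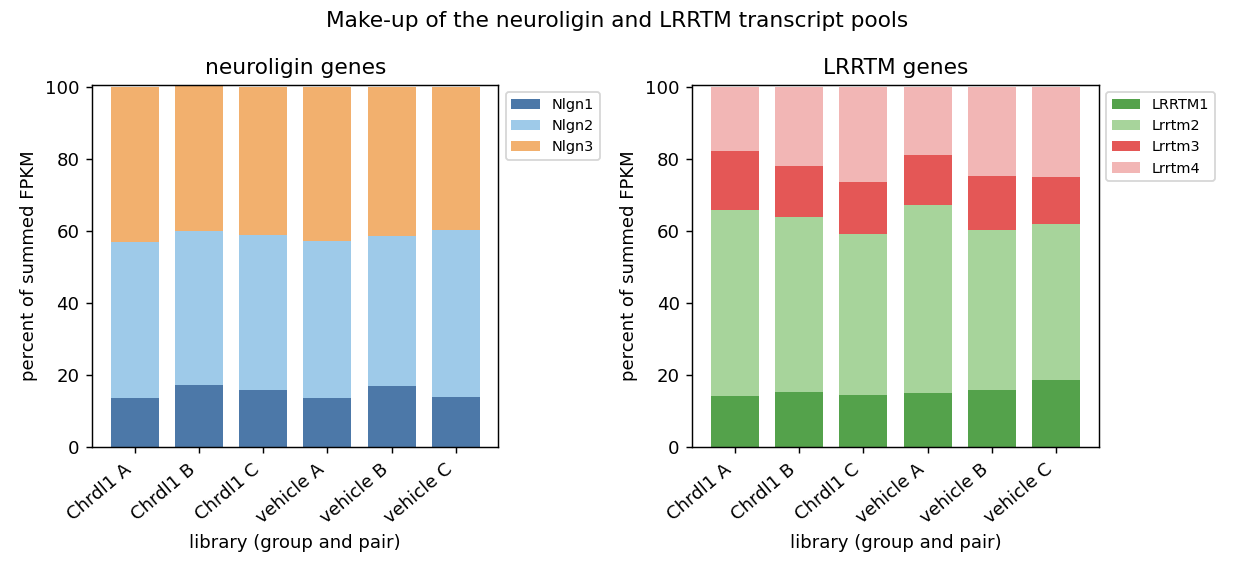
Percent of summed FPKM (vertical axes) that each neuroligin gene (left) and each LRRTM gene (right) contributed in the 6 libraries, Chrdl1 libraries left of vehicle libraries. Nlgn2 held 41.7% to 46.1% of the neuroligin sum and Lrrtm2 43.2% to 52.1% of the LRRTM sum in every library.

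By mean level over the 6 libraries, the order was Nrxn2 (49.9 FPKM), Nlgn2 (40.6), Nlgn3 (38.9), Nrxn3 (21.4), Nlgn1 (14.3), Lrrtm2 (6.31), Lrrtm4 (2.98), LRRTM1 (2.09) and Lrrtm3 (1.93). Nlgn2 was above Nlgn3 in 5 of 6 libraries and LRRTM1 above Lrrtm3 in 4 of 6, so their order was not the same in every library. No test between genes was run. Nrxn2 and Nlgn2 had overlapping ranges, although Nrxn2 was the higher in 6 of 6 libraries. The ranges of the other neighbours did not overlap. Among all tested genes, Nrxn2 stood at percentile 87.3 of mean FPKM, Nlgn2 at 83.1 and Nlgn3 at 82.3. Lrrtm2 stood at percentile 29.0, and LRRTM1 and Lrrtm3 at 8.77 and 7.63. FPKM is per length of the listed transcript, so an order between genes also depends on how well that transcript matches the one the cells make.

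No member passed the test for a change with Chrdl1. All 9 passed the filter of at least 1 FPKM in at least 3 libraries, and limma on log2(FPKM + 1) called 0 of 9 at an adjusted p under 0.05, where 0 of 10390 genes (0.0%) were called in all. At an unadjusted p under 0.05 there were 0 members and 18 genes, and 0 members and 535 genes when the fit paired libraries by title code. The fit without pairing counts spread between codes as error, so its p-values run large and its intervals wide. Log2 fold changes, Chrdl1 minus vehicle, were -0.036 ± 0.16 (SE) for Nrxn2, with a 95% interval from -0.41 to 0.34, and 0.042 ± 0.10 for Nrxn3, from -0.20 to 0.28. They were 0.068 ± 0.15 for Nlgn1, from -0.28 to 0.42, -0.014 ± 0.11 for Nlgn2, from -0.29 to 0.26, and 0.011 ± 0.15 for Nlgn3, from -0.34 to 0.36. The adjusted p was 0.9998 for each member. With the replicate block, which pairs libraries by title code, the estimates were the same and the intervals narrower, from -0.17 to 0.10 for Nrxn2, -0.12 to 0.20 for Nrxn3, -0.11 to 0.24 for Nlgn1, -0.15 to 0.12 for Nlgn2 and -0.13 to 0.15 for Nlgn3. Each still included 0.

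Among the LRRTMs, Lrrtm2 had a log2 fold change of 0.019 ± 0.14 (SE), with an interval from -0.32 to 0.36, and Lrrtm3 of 0.053 ± 0.17, from -0.34 to 0.45. Lrrtm4 was at -0.079 ± 0.18, from -0.49 to 0.34. LRRTM1 had the largest size of the 9, at -0.14 ± 0.15, from -0.50 to 0.22. Its unadjusted limma p was 0.377, and 0.259 with the replicate block. The blocked intervals were -0.40 to 0.12 for LRRTM1, -0.19 to 0.22 for Lrrtm2, -0.23 to 0.33 for Lrrtm3 and -0.33 to 0.17 for Lrrtm4. LRRTM1 was negative in all 3 pairs, at -0.0086, -0.16 and -0.26 in pairs A, B and C. One of 9 members was thus lower with Chrdl1 in every pair, where 19.5% of all tested genes were, and 0 of 9 were higher in every pair, where 7.55% were. The members had a median of 0.011, with 5 positive and 4 negative, beside a median of -0.028 over all tested genes.

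Differences within pairs were smallest in pair A for 6 of the 9 members. In pair C, Nlgn1 was higher with Chrdl1 by 0.20, Nrxn3 by 0.14, Lrrtm3 by 0.11 and Nlgn3 by 0.082 on the log2 scale, while LRRTM1, Nrxn2 and Nlgn2 stood at -0.26, -0.092 and -0.067. The member medians in pairs A, B and C were -0.0086, -0.046 and 0.055. The 3333 tested transcripts as long as the members, from 2691 to 6385 bases, had medians of -0.012, -0.020 and 0.016, and all tested transcripts had -0.013, -0.022 and -0.055. In pair C the medians of the members and of transcripts of their length were thus positive and that of all transcripts negative, with 3 of the 9 members negative, and the part of transcript length in these values was not tested.

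**Figure D3:**
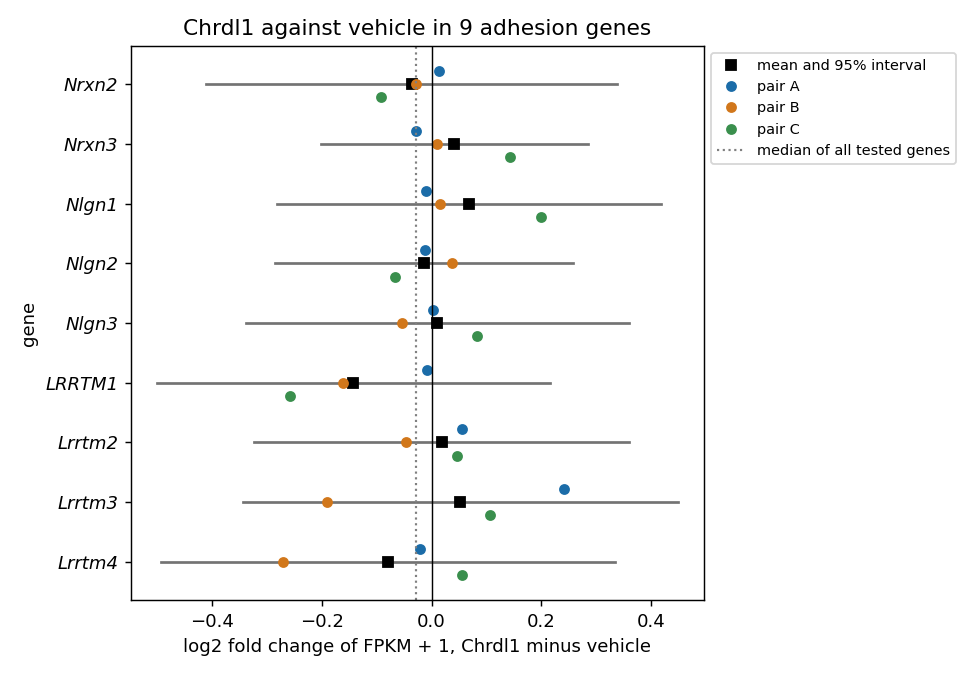
Log2 fold change of FPKM + 1, Chrdl1 minus vehicle (horizontal axis), of the 9 genes; black squares and lines are the limma estimate with its 95% interval, coloured points the 3 pairs, and the dotted line the median of all tested genes. Every interval, from the fit without the replicate block, includes 0, and the outermost bounds are -0.50 for LRRTM1 and 0.45 for Lrrtm3.

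The same transcripts differed between title codes. With treatment as a term, limma's F-test of the code called 4 of 9 members, Nrxn2, Nlgn1, Nlgn2 and Nlgn3, where 47.4% of all tested genes were called, so the members' share was near that background. Nrxn2 averaged 45.2, 45.1 and 59.5 FPKM in pairs C, B and A (2 libraries each). Its log2 difference was -0.39 for pair C minus pair A and -0.39 for pair B minus pair A (adjusted p = 0.00156). Nlgn3 averaged 33.4, 38.6 and 44.7 FPKM in pairs C, B and A, with -0.41 for pair C minus pair A (adjusted p = 0.00386). Nlgn2 averaged 36.7, 40.1 and 44.8 FPKM, with -0.28 (adjusted p = 0.0285). By pair mean, Nlgn2, Nlgn3, Lrrtm2 and Lrrtm3 had the same order of pairs. For Lrrtm3 neither group alone had this order, since pair B was lowest in Chrdl1 and highest in vehicle libraries. Nlgn1 averaged 12.4, 16.2 and 14.3 FPKM in pairs C, B and A, with -0.36 for pair C minus pair B (adjusted p = 0.0259). Over all tested genes the median was 0.069 for pair C minus pair A and 0.026 for pair B minus pair A, the opposite sign to Nrxn2, Nlgn2 and Nlgn3. Relative to those medians Nrxn2 was at -0.46 and -0.42, Nlgn3 at -0.48 and -0.23, and Nlgn2 at -0.35 and -0.18.

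The remaining members did not pass that test. Lrrtm2 differed by -0.27 for pair C minus pair A (adjusted p = 0.141), Lrrtm4 by 0.31 (0.192) and Nrxn3 by 0.19 for pair B minus pair A (0.203). Lrrtm3 and LRRTM1 stood at adjusted p values of 0.732 and 0.912. The LRRTM values depended on the scaling: with quantile normalization the difference for pair C minus pair A was -0.49 for Lrrtm2, which then passed the test, 0.014 for Lrrtm4, -0.41 for Lrrtm3 and -0.22 for LRRTM1. In 8 of 9 members the widest difference between codes exceeded the difference between Chrdl1 and vehicle, as it did in 9738 of the 10390 tested genes. LRRTM1 was the exception. The widest is the largest of 3 differences between means of 2 libraries. It therefore tends to exceed 1 difference between means of 3 libraries from spread alone, and the count cannot rank codes above treatment. Besides the photoreceptor and microglial sums above, the 8 amacrine and bipolar genes summed to 109 FPKM in Chrdl1 and 102 FPKM in vehicle libraries of pair C, and to 73.3 to 91.4 FPKM in the other libraries. The 9 astrocyte and Müller glia genes summed to 99.1, 54.9 and 73.5 FPKM in Chrdl1 and 100.8, 63.8 and 75.9 FPKM in vehicle libraries of pairs C, B and A. Most of this was Glul in every library, and 3 of the 9 genes were at 1 FPKM or more in every library. The sum of the 8 RGC genes was 2165, 2286 and 2590 FPKM in Chrdl1 and 2427, 2295 and 2593 FPKM in vehicle libraries of pairs C, B and A. This sum was highest in pair A of both groups, but its genes did not share that order. Sncg, its largest part, and Nefm were highest in pair A of both groups. Rbpms, Pou4f2, Isl1 and Slc17a6 were highest in pair B of both groups, Thy1 was highest in pair C, and Nefl differed between the groups. The part of these sums in the differences between codes was not tested. Leaving out the Chrdl1 library of pair A left 1 member called (Nlgn3, adjusted p = 0.0483), and leaving out the vehicle library of pair A also left 1 (Nrxn2, 0.0260). Nlgn1 lost its call also when vehicle libraries of pairs B (adjusted p = 0.0816) or C (0.0887) were left out, 1 at a time.

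**Figure D4:**
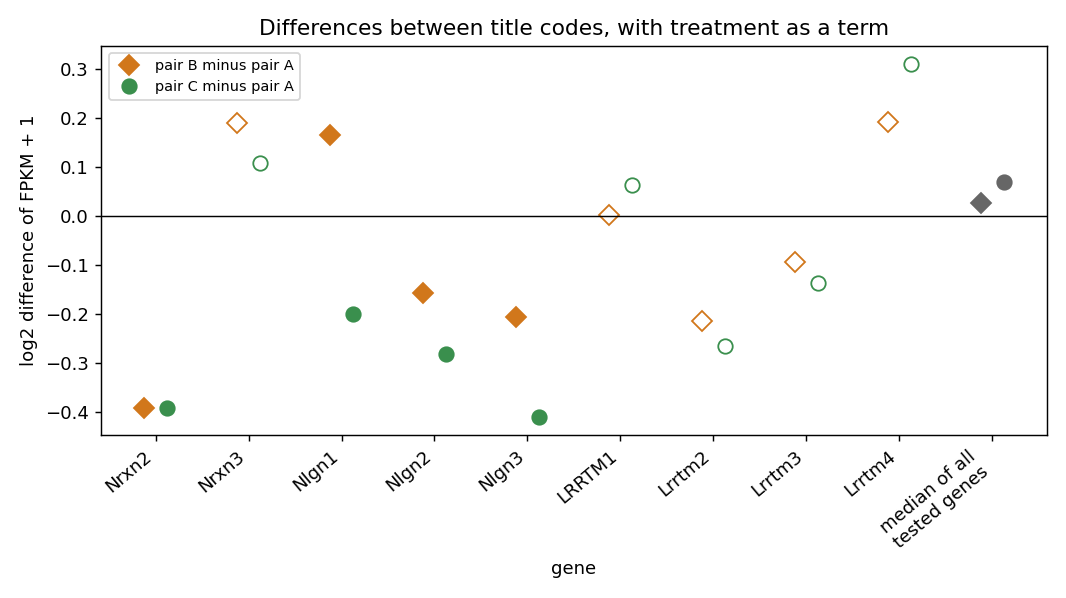
Log2 difference of FPKM + 1 between title codes (vertical axis), pair B minus pair A as diamonds and pair C minus pair A as circles, for the 9 genes and, in grey, the median of all tested genes; filled symbols mark genes called by the F-test. Nrxn2, Nlgn2 and Nlgn3 lie below 0 in both differences, down to -0.41, and the grey medians at 0.026 and 0.069 lie above it.

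Nrxn2 varied most over the 6 libraries, with an SD of 0.20 on the log2 scale. The 3 tested genes outside the families whose centred profile was nearest to it were Rtn2, Ttyh3 and Hid1. Their root mean square differences from Nrxn2 over the 6 libraries were 0.017, 0.020 and 0.026 on the log2 scale. Rtn2, a reticulon, averaged 68.3, 69.3 and 90.4 FPKM in pairs C, B and A. These are the nearest of 10390 genes over 6 libraries that share 3 codes, and are given as a description only.

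A list of 60 other trans-synaptic adhesion and scaffold genes was read beside the members. It holds the cerebellins, latrophilins, FLRTs, MDGAs, neurexophilins, calsyntenins, SLITRKs, receptor phosphatases, synaptic cell adhesion molecules and the scaffolds that bind neurexins and neuroligins. Of these, 56 were in the table and 54 passed the filter. None of the 54 passed the test for Chrdl1 (limma), and their median log2 fold change was -0.0059. At an unadjusted p under 0.05 there were 0 of the 54, where only 18 of all 10390 tested genes were. With the replicate block there were 0 of the 54 and 535 of all tested genes. By direction, 2 of 54 were higher and 5 lower with Chrdl1 in all 3 pairs, which is 3.70% and 9.26% beside 7.55% and 19.5% of all tested genes.

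The genes of this list with 1 direction in every pair and the smallest unadjusted p were Ntrk3 and Flrt3 on the higher side and Cbln2 and Cadm3 on the lower. Ntrk3, the neurotrophin receptor TrkC that also binds a presynaptic receptor phosphatase, was at 2.46, 3.01 and 2.29 FPKM in Chrdl1 and at 2.28, 2.46 and 1.28 FPKM in vehicle libraries, in the order of pairs A, B and C. Its log2 fold change was 0.27 ± 0.21 (SE). The groups overlapped, and the vehicle library of pair C stood lowest, from 91 reads. Flrt3, a ligand of latrophilins, averaged 17.4 ± 1.55 FPKM in Chrdl1 and 16.1 ± 0.848 FPKM in vehicle libraries (SD, n = 3 each). Cbln2, a secreted protein that binds neurexins, averaged 45.1 ± 2.76 FPKM in Chrdl1 and 49.4 ± 6.91 FPKM in vehicle libraries. Cadm3, an immunoglobulin adhesion molecule, averaged 117 ± 8.67 FPKM in Chrdl1 and 125 ± 8.86 FPKM in vehicle libraries. The 2 group ranges overlapped for each of these 4 genes.

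Between title codes 27 of the 54 were called, or 50%, beside the 47.4% of all tested genes. Of the 27, 8 were highest in pair A, as Nrxn2, Nlgn2 and Nlgn3 were: Adgrl3, Apba1, Apba2, Cadm4, Clstn3, Cntnap1, Mdga1 and Ptprf. Apba1, which encodes the neurexin-binding scaffold Mint1, averaged 39.2, 54.9 and 59.9 FPKM in pairs C, B and A. A further 10 were highest in pair B, as Nlgn1 was, among them C1ql3, Cask, Cbln2, Clstn2, Lin7c, Magi2, Slitrk1, Slitrk2 and Slitrk5. Cask, the kinase-like scaffold that binds the neurexin tail, averaged 8.72, 11.6 and 11.3 FPKM in pairs C, B and A. The other 9 were highest in pair C: Adgrl2, C1ql1, Cadm1, Gpc4, Il1rap, Lin7a, Nxph1, Nxph3 and Slitrk6. Gpc4, a glypican that binds LRRTM4, averaged 3.08, 0.53 and 1.13 FPKM in pairs C, B and A.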

How the data were processed

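RNA-seq libraries of RGC cultures (3 Chrdl1, 3 vehicle) were sequenced. Libraries were made with a stranded Illumina mRNA kit, per the labels' protocols. FastQC, STAR 2.4.0k and HOMER 4.8.3 with build rn6 are named in the submitters' processing notes; which annotation release and read filters were used is not given there. The authors deposited 1 table of FPKM values with transcript lengths, 1 RefSeq transcript per symbol.

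The read total of each library was recovered from FPKM and length: within rounding plus 0.02 reads, 100.0% of values under 500 reads were whole, where 7.28% to 9.76% would be if values were not whole. Tests used limma 3.58.1 in R 4.3.3 (trend, two-sided) on log2(FPKM + 1) over 10390 transcripts at 1 FPKM or more in at least 3 libraries, with Benjamini-Hochberg adjustment over all of them and a threshold of 0.05. Fold changes on this scale understate those of low genes. Treatment was the only term for Chrdl1 against vehicle, so that spread between codes stayed in the SEs, intervals and p-values of this fit. Title codes were compared with an F-test with treatment as a term; on simulated data this test found the changed genes but made more false calls than its threshold allows. Deviations from group means correlated at 0.823, 0.860 and 0.842 between libraries sharing a code, so the codes were taken to pair the libraries. Tables and intervals used Python 3.11.15, numpy 2.4.6 and pandas 2.3.3. Alternatives were other pseudocounts, filters and scalings, voom on recovered reads, the replicate block, and leaving out libraries.

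The members and lists were chosen with earlier results of these data known. All members are named, and so is every partner gene called except 1 that is not reported here. Otherwise the rule took the partner genes with 1 direction in all pairs and, by unadjusted p, the first 2 on each side, and for likeness the 3 genes nearest to the most variable member. For partner genes called between codes, 3 examples with values were chosen after their values were seen.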

Additional observations from a re-analysis of the deposited data

How the results depend on the processing

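The calls for Chrdl1 against vehicle did not depend on the settings tried: 0 members and 0 partner genes were called under each. With the replicate block, which pairs libraries by title code, 0 genes were called (535 at an unadjusted p under 0.05), and the block changed no other call. On recovered reads voom called 0 genes as well, with and without the block. Without pair A or pair B, the block called 18 or 32 genes, none a member; a fit on 2 pairs has 1 residual degree of freedom per gene before limma shares the spread over genes.

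Signs of the members' log2 fold changes were less stable, in 136 of 159 values the same and in 23 turned. LRRTM1 kept its sign in all 17 alternatives run, from -0.21 to -0.085. Leaving out 1 library, which leaves codes unequal between groups, gave -0.18 to 0.082 for Nrxn2, 0.0040 to 0.11 for Nrxn3, -0.058 to 0.17 for Nlgn1, -0.088 to 0.067 for Nlgn2, -0.11 to 0.12 for Nlgn3, -0.071 to 0.089 for Lrrtm2, -0.033 to 0.12 for Lrrtm3 and -0.18 to -0.0099 for Lrrtm4. Without pair A, the blocked fit gave -3.2e-05 for Lrrtm2 and -0.041 for Lrrtm3; without pair B, 0.017 for Lrrtm4; without pair C, 0.012 for Nlgn2, -0.025 for Nlgn3 and -0.0090 for Nrxn3. Nlgn2 turned to 0.029 with quantile normalization, 0.0020 with median centring, 0.011 with voom and 0.0089 with voom and the block. Nrxn2 turned to 0.0064 with quantile normalization. The cause was not tested.

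For title codes, leaving out 1 library gave 3115 to 5561 genes, 1 to 4 members and 14 to 27 partner genes called, the low ends without a pair A library. With FPKM of at least 5, 17 of 35 partner genes were called. Quantile normalization and median centring added Lrrtm2 (-0.49 and -0.38 for pair C minus pair A, adjusted p = 0.0193 and 0.0411), took Lrrtm3 to -0.41 and -0.25 and Lrrtm4 to 0.014 and 0.20, and voom added Nrxn3 (0.0294); without a filter Nlgn1 was lost (0.0628). The difference of LRRTM1 for pair C minus pair A turned to -0.22 and -0.052 with quantile normalization and median centring, and ran from -0.038 to 0.16 on leaving out 1 library; that of Lrrtm3 ran from -0.28 to 0.0049. The 3 scarce LRRTMs rest on 94 to 235 reads per library, which limits their precision.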
